A study of Mus musculus with 12 samples.

Results

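Irradiated mouse lung taken 14 days after irradiation was compared with irradiated mouse lung taken 11 days after it, 3 RNA-seq libraries against 3. The libraries were chosen by their labels and are 6 of the 12 in the series. The others are 3 libraries of lung taken 8 days after irradiation and 3 of lung that was not irradiated. For the irradiated groups only tissue from the exposed part of the lung was taken, per the series description. Both groups compared here carry that exposure, and the labels set them apart only by the time since it. The sources used here do not give the dose, strain, age, sex or irradiated field. The comparison asks what changed late in the period sampled, when genes of acute inflammation were coming down. The labels number the replicates without saying that they are separate animals, so a p-value here reflects how far these samples spread, and that spread may be technical.

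Injured lung draws in neutrophils and monocytes through chemokines, small secreted proteins whose genes are switched on by the factor NF-kB. Interferons, made in the same response, induce a set of antiviral genes. Monocytes become macrophages that engulf dead cells, break them down in lysosomes and pass the cholesterol they take up to lipoproteins through the exporters Abca1 and Abcg1 and the carrier apolipoprotein E. The genes of that export are targets of the LXR receptors, and the genes of cholesterol synthesis are targets of the SREBP factors, which are held inactive when sterols are plentiful. The blood capillaries and the thin type 1 cells of the alveolar wall are the surface across which gas is exchanged.

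The 11 d libraries held 19624554 to 24502421 counts and the 14 d libraries 22615862 to 25524425. Sftpc, which marks alveolar type 2 cells and so lung tissue, lay between 10304 and 15929 CPM (counts per 1000000 of the scaled library size) at 11 d and between 10782 and 12506 CPM at 14 d. Rn45s, a ribosomal RNA precursor, took 3.48 to 6.27% of counts at 11 d and 2.12 to 3.41% at 14 d. In a principal component analysis of the 6 libraries the first component, with 38.3% of the variance, placed the 11 d replicates 1 to 3 at -12.1, -29.4 and -31.8 and the 14 d replicates 1 to 3 at 33.0, 31.1 and 9.21. The groups did not overlap on it, and 11 d replicate 1 and 14 d replicate 3 lay nearest the other group. On the first component of all 12 libraries, however, the groups overlapped: the 11 d replicates 1 to 3 were at 48.2, 20.9 and 23.2 and the 14 d replicates at 49.3, 32.3 and 49.7, so that 11 d replicate 1 lay among the 14 d libraries.

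Between 11 d and 14 d, some genes of acute inflammation, interferon response, cholesterol synthesis and blood vessel endothelium fell, and some of cholesterol export, lysosomal digestion, complement C1q and tissue macrophages rose. Of 16484 genes tested, 296 (1.80%) were called in edgeR's quasi-likelihood test, with a Benjamini-Hochberg adjusted p below 0.05, 134 (0.813%) higher and 162 (0.983%) lower at 14 d. A change of 2-fold or more was reached by 62 of the genes that rose and 74 of those that fell. Called log2 changes ran from -3.56 to 3.22, and the smallest was 0.47 in size. Over all genes tested the median log2 change was -0.01, with 8051 genes above 0 and 8433 below it. List counts below are to be read beside the shares of all genes called, 0.813% higher and 0.983% lower. The libraries of the groups did not overlap for 3577 genes (21.7%), of which 1641 (9.96% of those tested) were higher and 1936 (11.7%) lower at 14 d, and all called genes but Efnb2 were among these. An unadjusted p below 0.05 was reached by 2681 genes.

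**Figure D1:**
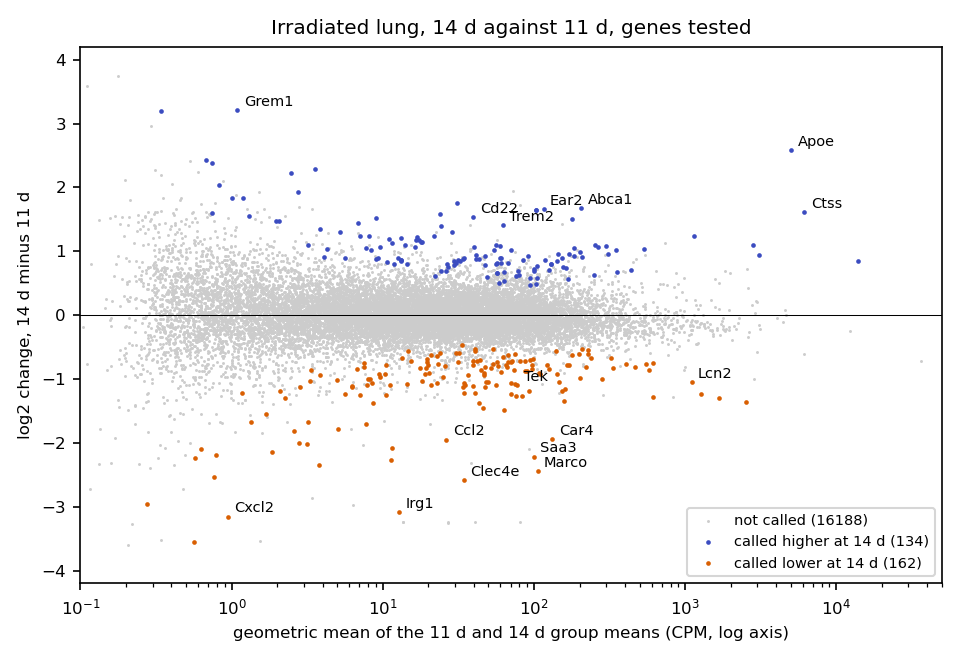
Each point is a gene tested, with the geometric mean of the 11 d and 14 d group means in CPM on a log axis and the log2 change, 14 d minus 11 d, on the vertical axis. Blue points are the 134 genes called higher at 14 d, orange points the 162 called lower and grey points the rest, and 5 genes, none of them called, lie outside the axes. Called genes lie at low and high levels, with Cxcl2 among those at low levels and Ctss and Apoe among those at high levels.

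How many genes were called depended strongly on which libraries were in the fit. Without 14 d replicate 1 the calls fell to 13, without 11 d replicate 2 to 24, without 11 d replicate 3 to 52 and without 14 d replicate 2 to 102. Without 14 d replicate 3 there were 268 calls, 193 of them among the 296, and without 11 d replicate 1 there were 681, of which 275 were among the 296. None of the 296 genes changed sign in any of these 6 fits. The library of 11 d nearest to 14 d was replicate 1 for 119 of the 134 rises and 112 of the 162 falls, and the library of 14 d nearest to 11 d was replicate 3 for 75 and 78.

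Of the 296 genes 13 were called in all 6 fits. Of these, 6 were lower at 14 d: Irg1 and Clec4e of macrophage activation, Hcar2, a receptor for hydroxybutyrate and niacin on myeloid cells, Car4, a carbonic anhydrase of the capillary surface, the sterol enzyme Fdps and the endothelial lipase gene Lipg. The other 7 were higher: Apoe, the ribonuclease genes Ear2, Ear3 and Ear12, the inhibitory lectin Cd22, and the lipid and nucleotide enzymes Daglb and Enpp1. The Ear genes are near-identical copies that may share reads, so their calls are not separate evidence. Of the remaining called genes, 10 were called in none of the 6 fits.

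**Figure D2:**
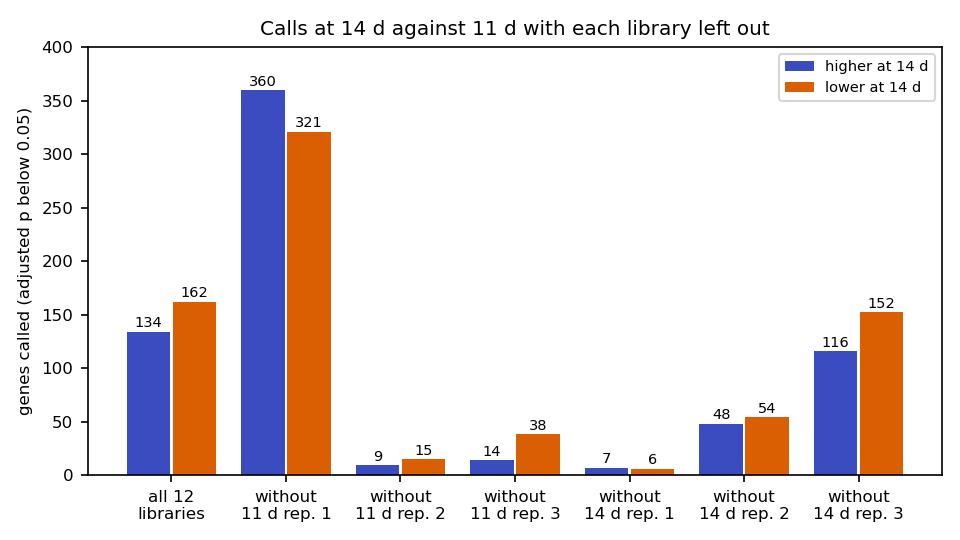
Bars give the number of genes called higher (blue) and lower (orange) at 14 d against 11 d with all 12 libraries and with each of the 6 compared libraries left out. Without 11 d replicate 1 the counts were 360 and 321, and without 14 d replicate 1 they were 7 and 6.

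Several attractants of monocytes, neutrophils and T cells fell. Of the 29 chemokine genes tested 8 (against 0.983% of all genes) fell and none rose, and their median log2 change was -0.47. Ccl2, which draws monocytes through the receptor Ccr2 and lies at chromosome 11, 82035571 to 82037453 (mm10), stood at 64.9, 51.7 and 38.5 CPM at 11 d and 13.7, 9.32 and 17.3 CPM at 14 d. Every 14 d library lay below every 11 d library, and Ccl2 fell by 1.95 on the log2 scale (adjusted p = 0.00692, SE 0.28). Ccl7, its neighbour in the same cluster and another monocyte attractant, measured 30.1, 23.7 and 17 CPM at 11 d and 4.32, 4 and 8.43 CPM at 14 d and fell by 2.08 on the log2 scale (adjusted p = 0.0103, SE 0.34). For both genes 14 d replicate 3 was the highest of its group. Ccl3 and Ccl4, attractants of monocytes and lymphocytes, fell by 1.38 (adjusted p = 0.0182, SE 0.26) and 2.01 (adjusted p = 0.0176, SE 0.37).

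The attractants of neutrophils, which act through Cxcr2, stood at lower levels. Cxcl2 was at 4.1, 2.91 and 1.5 CPM at 11 d and 0.315, 0.339 and 0.292 CPM at 14 d, and it fell by 3.15 on the log2 scale (adjusted p = 0.0134, SE 0.54). Cxcl3 was at 2.75, 2.3 and 0.881 CPM at 11 d and 0.135, 0.264 and 0.0835 CPM at 14 d, and it fell by 3.56 on the log2 scale (adjusted p = 0.0155, SE 0.64), the largest fall among called genes. The 3 libraries of 14 d lay close together for Cxcl2, while the 11 d libraries spread, with replicate 1 the highest. Cxcl5, made by lung epithelium, fell by 1.81 on the log2 scale (adjusted p = 0.033, SE 0.39), while Cxcl1 had a log2 change of -1.36 (adjusted p = 0.0957, SE 0.39) and was not called.

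Cxcl10, which draws T cells through Cxcr3, stood at 54.1, 50.7 and 45.8 CPM at 11 d and 21.9, 15.4 and 31.9 CPM at 14 d and fell by 1.12 on the log2 scale (adjusted p = 0.04, SE 0.25). Of the other ligands of the same receptor neither was called: Cxcl9 had a log2 change of 0.41 (adjusted p = 0.499, SE 0.28) and Cxcl11 of -0.36 (adjusted p = 0.668, SE 0.36), with overlapping libraries in both. Ccl8, a further monocyte attractant, had the highest value of the list, 0.94 (adjusted p = 0.108, SE 0.28), and was not called. The differences between these members were not tested. Of the 8 falls 7 were still called without 11 d replicate 1 and none without 14 d replicate 1.

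At 14 d 6 of the 8 chemokines that fell were called above unirradiated lung, a comparison in which 38.9% of all genes were called, and Cxcl2 and Cxcl3 were not. For Ccl2 the log2 difference from unirradiated lung was 4.94 (adjusted p = 5.12e-07, SE 0.39) at 14 d, beside 6.89 (adjusted p = 1.89e-07, SE 0.40) at 11 d, where 37.2% of genes were called. For Cxcl10 it was 4.24 (adjusted p = 3.39e-07, SE 0.31) at 14 d and 5.36 (adjusted p = 1.99e-07, SE 0.32) at 11 d. These comparisons share the unirradiated libraries.

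The promoters of Cxcl2 and Cxcl3, the chemokines with the steepest falls, are shown because both hold a match to the binding site of NF-kB, written as GGGA, any 1 base and TTTCC, on one strand or the other. RefSeq's promoter table for GRCm38.p6 held an entry for 4 of the 8 chemokines that fell, and these were the 2 with the motif in the 250 bases before the start. The same letters occur in 117 of 32851 promoters (0.356%). The window of Cxcl2 is chr5:90903649-90903898 on the plus strand and that of Cxcl3 chr5:90785851-90786100 on the plus strand. Capitals mark the match, which begins 97 bases before the start in Cxcl2 and 73 bases before it in Cxcl3. Here and below the motifs were chosen after the values were seen, and a match is a match of letters, not a measured site.
Cxcl2: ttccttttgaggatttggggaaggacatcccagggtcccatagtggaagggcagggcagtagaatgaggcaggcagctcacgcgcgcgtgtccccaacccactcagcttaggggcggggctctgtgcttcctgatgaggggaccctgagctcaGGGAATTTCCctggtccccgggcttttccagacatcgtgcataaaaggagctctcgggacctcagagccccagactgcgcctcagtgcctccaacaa
Cxcl3: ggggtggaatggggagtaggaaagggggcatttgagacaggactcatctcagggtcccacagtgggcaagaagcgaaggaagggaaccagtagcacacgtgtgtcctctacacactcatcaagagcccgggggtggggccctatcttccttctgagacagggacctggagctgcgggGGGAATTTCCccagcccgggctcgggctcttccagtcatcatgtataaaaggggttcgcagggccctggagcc

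Among 18 inflammatory cytokine genes tested, 3 (against 0.983% of all genes) fell and none rose, with a median log2 change of -0.32. Tnf, which activates NF-kB in its target cells, was at 7.31, 6.09 and 3.68 CPM at 11 d and 2.02, 1.74 and 1.63 CPM at 14 d and fell by 1.67 on the log2 scale (adjusted p = 0.0168, SE 0.31). Il1rn, the secreted antagonist of the interleukin 1 receptor, was at 188, 126 and 105 CPM at 11 d and 71, 53.6 and 59.8 CPM at 14 d and fell by 1.18 on the log2 scale (adjusted p = 0.0127, SE 0.20). Il33, an alarm cytokine held in the nuclei of type 2 cells and endothelium, was at 270.1, 279 and 295 CPM at 11 d and 121, 146 and 162 CPM at 14 d and fell by 0.98 on the log2 scale (adjusted p = 0.00654, SE 0.14). In none of the 3 did the groups overlap. The 20 feedback genes of the NF-kB pathway held no call and had a median of -0.26, with 16 below 0 (against 8433 of 16484 genes tested). The libraries did not overlap for 8 that were lower at 14 d (against 11.7% of all genes) and 1 that was higher (against 9.96%). Their summed level was 1398 to 1528 CPM at 11 d and 1199 to 1229 CPM at 14 d, without overlap.

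Of 28 innate effector and acute-phase genes tested 8 (against 0.983% of all genes) fell and none rose, with a median log2 change of -0.79. Irg1, whose enzyme makes itaconate in activated macrophages and which lies at chromosome 14, 103047012 to 103056573 (mm10, as Acod1), was at 50.1, 35.4 and 26 CPM at 11 d and 5.58, 2.45 and 5.18 CPM at 14 d and fell by 3.09 on the log2 scale (adjusted p = 0.00328, SE 0.39). All 14 d libraries were well below the lowest at 11 d, and the highest at 11 d was replicate 1. Clec4e, the receptor Mincle that senses dead cells and glycolipids, was at 116, 76.9 and 58.4 CPM at 11 d and 13.2, 11.7 and 17.2 CPM at 14 d and fell by 2.58 on the log2 scale (adjusted p = 0.00369, SE 0.34). Both were called without any one of the 6 libraries.

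Saa3, an acute-phase protein made in the lung by macrophages and epithelium, was at 265, 198 and 179 CPM at 11 d and 34.9, 41 and 62.4 CPM at 14 d and fell by 2.22 on the log2 scale (adjusted p = 0.0182, SE 0.42). The highest library of 14 d, replicate 3, was far below the lowest of 11 d, and the call was lost in 4 of the 6 fits. Lcn2, which binds bacterial iron carriers, was at 1586, 1427 and 1759 CPM at 11 d and 676, 758 and 871 CPM at 14 d and fell by 1.05 on the log2 scale (adjusted p = 0.0103, SE 0.17). Marco, a scavenger receptor of macrophages, was at 280.0, 252 and 204 CPM at 11 d and 45.5, 42.8 and 47.8 CPM at 14 d and fell by 2.44 on the log2 scale (adjusted p = 0.00865, SE 0.38). Its 14 d libraries lay close together, and its level then differed from unirradiated lung by 0.54 (adjusted p = 0.268, SE 0.36), which was not called. Hp, Sod2 and Upp1, genes of haemoglobin capture, superoxide removal and uridine breakdown, fell by 0.85 (adjusted p = 0.0405, SE 0.19), 0.85 (adjusted p = 0.0103, SE 0.14) and 0.78 (adjusted p = 0.0323, SE 0.17).

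Outside these lists, further genes were named by their size of change. Hcar2 was at 12.4, 8.06 and 4.98 CPM at 11 d and 1.93, 1.55 and 1.54 CPM at 14 d and fell by 2.34 on the log2 scale (adjusted p = 0.0065, SE 0.34). Slfn4, a Schlafen gene of myeloid cells, was at 43.8, 23 and 7.52 CPM at 11 d and 4.86, 5.96 and 4.67 CPM at 14 d and fell by 2.26 on the log2 scale (adjusted p = 0.0451, SE 0.53), and its 11 d libraries spread widely with replicate 3 close to the 14 d group. Wfdc21 fell by 1.70 on the log2 scale (adjusted p = 0.0145, SE 0.30). The fibrinogen chain genes Fgg and Fga, best known from liver and made by injured epithelium, fell by 1.77 (adjusted p = 0.0103, SE 0.28) and 1.54 (adjusted p = 0.0308, SE 0.33).

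Of 10 neutrophil markers tested 1 (against 0.983% of all genes) fell, Trem1, a receptor that amplifies myeloid activation. Trem1 was at 4.31, 4.73 and 3.42 CPM at 11 d and 2.16, 2.11 and 1.46 CPM at 14 d, with a log2 change of -1.12 (adjusted p = 0.0272, SE 0.23). S100a8 and S100a9, the abundant calprotectin genes of neutrophils, had log2 changes of -1.16 (adjusted p = 0.269, SE 0.50) and -1.70 (adjusted p = 0.15, SE 0.56), with every 14 d library below every 11 d library and no call. The summed level of the neutrophil markers was 143 to 218 CPM at 11 d and 124 to 139 CPM at 14 d. In bulk tissue fewer cells of a type and less RNA of a gene per cell cannot be told apart, here and for all lists that follow, and the part of neutrophil number in the falling chemokines was not tested.

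Of 25 antiviral genes induced by type I interferon 5 (against 0.983% of all genes) fell and none rose, and the median log2 change was -0.56. Ifit1, which binds foreign RNA, was at 244, 213 and 169 CPM at 11 d and 102, 86.3 and 116 CPM at 14 d and fell by 1.04 on the log2 scale (adjusted p = 0.0168, SE 0.19). Rsad2, the enzyme viperin, was at 79.9, 56.3 and 49.8 CPM at 11 d and 26.8, 23.6 and 30 CPM at 14 d and fell by 1.21 on the log2 scale (adjusted p = 0.0182, SE 0.23). The groups were apart for both genes, and 14 d replicate 2 was the lowest of its group. Ifit3, Cmpk2 and Usp18 fell by 0.99 (adjusted p = 0.0222, SE 0.19), 0.82 (adjusted p = 0.0401, SE 0.19) and 0.73 (adjusted p = 0.0379, SE 0.16). Ifit3 has a near-identical copy, Ifit3b, which was called lower too, and reads may be shared between them. None of the 5 calls held without 14 d replicate 1, 14 d replicate 2 or 11 d replicate 2.

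Genes that answer mainly to interferon gamma held no call among 23 tested, with a median log2 change of -0.13. Whether the interferon lists differ from each other was not tested. For Ifit1 the log2 difference from unirradiated lung was 1.51 (adjusted p = 2.59e-05, SE 0.19) at 14 d and 2.55 (adjusted p = 9.73e-07, SE 0.20) at 11 d.

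The promoters of Ifit1, Ifit3 and Rsad2 are shown because they hold the letters of the interferon-stimulated response element, GAAA repeated after any 2 bases, on one strand or the other. Of the 5 interferon genes that fell 4 had a promoter entry, and these 3 had the motif, which 978 of 32851 promoters (2.98%) hold. The windows are the 250 bases before the start in GRCm38.p6, chr19:34640639-34640888 on the plus strand for Ifit1, chr19:34583279-34583528 on the plus strand for Ifit3 and chr12:26456453-26456702 on the minus strand for Rsad2. Capitals mark the matches, of which Ifit1 and Ifit3 hold 2 each and Rsad2 holds 1. Of the 4 falling chemokines with an entry Cxcl10 held these letters too.
Ifit1: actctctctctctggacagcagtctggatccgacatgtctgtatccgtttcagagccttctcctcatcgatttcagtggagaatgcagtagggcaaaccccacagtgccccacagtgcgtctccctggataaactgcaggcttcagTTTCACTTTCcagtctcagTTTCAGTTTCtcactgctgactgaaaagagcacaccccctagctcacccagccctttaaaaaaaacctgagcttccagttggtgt
Ifit3: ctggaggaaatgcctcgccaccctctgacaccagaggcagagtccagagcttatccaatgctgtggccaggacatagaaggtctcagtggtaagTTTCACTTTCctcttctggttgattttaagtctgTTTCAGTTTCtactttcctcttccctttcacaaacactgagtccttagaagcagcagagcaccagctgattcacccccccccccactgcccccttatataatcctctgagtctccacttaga
Rsad2: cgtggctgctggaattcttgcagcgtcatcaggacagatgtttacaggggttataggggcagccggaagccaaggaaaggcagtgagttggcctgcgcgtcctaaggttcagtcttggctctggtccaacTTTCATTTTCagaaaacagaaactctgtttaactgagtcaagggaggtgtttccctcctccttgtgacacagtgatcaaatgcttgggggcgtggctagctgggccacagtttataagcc

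**Figure D3:**
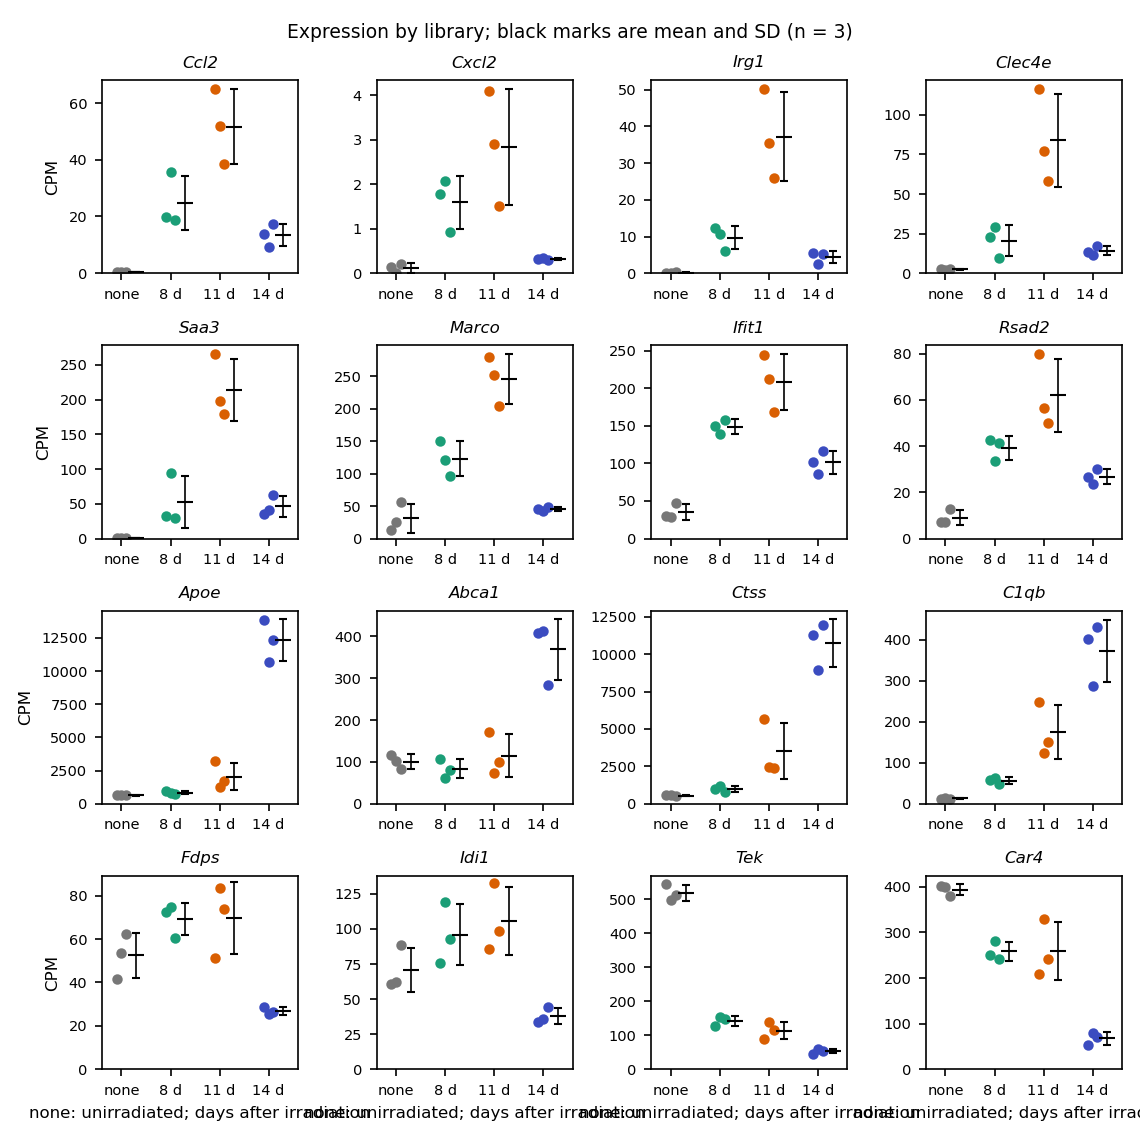
Each panel plots the CPM of a gene in the 12 libraries, by group, with the mean and SD (n = 3) in black beside the points. Chemokine, innate and interferon genes peak at 11 d, Apoe, Abca1, Ctss and C1qb are highest at 14 d, and Tek and Car4 lie below unirradiated lung.

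For 20 genes (0.121% of those tested) the step from 11 d to 14 d differed from the equally long step from 8 d to 11 d in a direct test of that difference. The steps share the 11 d libraries, so a library that stands high at 11 d enters both. In 17 of the 20 the later step was the lower one. The number depended on the libraries: it was between 2 and 12 with 1 of the 6 libraries of 11 d and 14 d left out, and 3 without 8 d replicate 3. DESeq2 called 95. Irg1 was at 12.2, 10.7 and 6.17 CPM at 8 d, and its log2 change was 1.94 in the earlier step and -3.09 in the later, which differ by -5.03 (adjusted p = 0.00578, SE 0.60). Marco, at 150.3, 121 and 96.2 CPM at 8 d, had log2 changes of 1.002 and then -2.44, which differ by -3.44 (adjusted p = 0.0391, SE 0.60). Hmox1, the haem-degrading enzyme, was at 76.5, 86.1 and 67.1 CPM at 8 d and at 217, 166 and 152 CPM at 11 d and 117, 124 and 137 CPM at 14 d, and the difference between its steps was -1.73 (adjusted p = 0.0236, SE 0.25). Its own log2 change from 11 d to 14 d, -0.50 (adjusted p = 0.111, SE 0.15), was not called. The 3 genes with the later step higher were Ear2, Ear3 and Ear12, near-identical copies that may share reads.

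Genes of cholesterol export rose in part. Of 20 export and LXR target genes tested 5 (against 0.813% of all genes) rose and 1 (against 0.983%) fell. Their median log2 change was 0.42. Apoe, which carries cholesterol and phospholipid away from macrophages and lies at chromosome 7, 19696109 to 19699188 (mm10), was at 3188, 1257 and 1716 CPM at 11 d and 13876, 10709 and 12349 CPM at 14 d. The lowest library at 14 d was above 3 times the highest at 11 d, and Apoe rose by 2.58 on the log2 scale (adjusted p = 0.00083, SE 0.28). Among the 11 d libraries replicate 1 was the highest, and without it, as without each other library, Apoe was called. Its log2 difference from unirradiated lung was 4.24 (adjusted p = 3.06e-07, SE 0.30) at 14 d and 1.65 (adjusted p = 0.000313, SE 0.27) at 11 d.

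The exporter Abca1 was at 173, 73 and 99.2 CPM at 11 d and 409, 414 and 283 CPM at 14 d and rose by 1.68 on the log2 scale (adjusted p = 0.0119, SE 0.28). Its log2 difference from unirradiated lung was 0.19 (adjusted p = 0.626, SE 0.28) at 11 d, which was not called, and 1.87 (adjusted p = 0.00012, SE 0.29) at 14 d. Abcg1, which loads cholesterol on to mature lipoprotein, was at 107, 84.1 and 70.1 CPM at 11 d and 149.6, 187 and 142 CPM at 14 d and rose by 0.87 on the log2 scale (adjusted p = 0.0443, SE 0.20). Lipa and Nceh1, which free cholesterol from its stored esters, rose by 0.76 (adjusted p = 0.0351, SE 0.17) and 0.62 (adjusted p = 0.042, SE 0.14). Ch25h, which makes 25-hydroxycholesterol and is itself induced by interferon, was at 13.1, 15.2 and 10.7 CPM at 11 d and 6.03, 6.49 and 8.01 CPM at 14 d and fell by 0.93 on the log2 scale (adjusted p = 0.0304, SE 0.19). The receptor genes Nr1h3 and Nr1h2 (LXR alpha and beta) had log2 changes of -0.16 (adjusted p = 0.638, SE 0.15) and -0.14 (adjusted p = 0.616, SE 0.13) and were not called. Of the 5 rises only Apoe was called without 11 d replicate 2, 11 d replicate 3 or 14 d replicate 1.

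Genes of cholesterol synthesis fell in part. Of the 19 genes of sterol and fatty acid synthesis tested 8 (against 0.983% of all genes) fell and none rose. Their median log2 change was -0.69. Fdps, which makes farnesyl diphosphate, was at 51.3, 83.5 and 74 CPM at 11 d and 28.8, 25.3 and 26.4 CPM at 14 d and fell by 1.37 on the log2 scale (adjusted p = 0.00441, SE 0.18). Idi1, one step before it, was at 85.8, 133 and 98.4 CPM at 11 d and 33.5, 35.7 and 44.5 CPM at 14 d and fell by 1.48 on the log2 scale (adjusted p = 0.0065, SE 0.21). For both genes all 14 d libraries lay below all 11 d libraries, by a wide gap. Cyp51, Msmo1 and Sqle, later enzymes of the path, fell by 1.11, 1.09 and 1.09, with adjusted p-values between 0.00865 and 0.0168. Fdft1, the first enzyme committed to sterols, fell by 0.73 on the log2 scale (adjusted p = 0.0168, SE 0.13). All 8 calls of the list held without 11 d replicate 1, and 1, that of Fdps, held without 14 d replicate 1.

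Enzymes of fatty acid synthesis had log2 changes near 0: Fasn 0.05 (adjusted p = 0.951, SE 0.30), Acaca 0.15 (adjusted p = 0.765, SE 0.20) and Acly -0.06 (adjusted p = 0.85, SE 0.12). None was called, and the difference between the branches was not tested. Hmgcs1, an early enzyme of sterol synthesis, had a log2 change of -0.76 (adjusted p = 0.0723, SE 0.20), with lower values in all 14 d libraries and no call. Fdps and Idi1 were below unirradiated lung at 14 d: the log2 difference from it was -0.97 (adjusted p = 0.000715, SE 0.18) for Fdps and -0.90 (adjusted p = 0.00336, SE 0.21) for Idi1, beside 0.41 (adjusted p = 0.0907, SE 0.18) and 0.58 (adjusted p = 0.0385, SE 0.21) at 11 d.

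Of 27 lysosomal genes tested 6 (against 0.813% of all genes) rose and none fell, and the median log2 change was 0.34. Their summed level was 11980.0 to 19725 CPM at 11 d and 28164 to 28968 CPM at 14 d, with no overlap. Ctss, a protease of macrophages that also trims the invariant chain of class II molecules, was at 5658, 2476 and 2419 CPM at 11 d and 11314, 8968 and 11962 CPM at 14 d and rose by 1.61 on the log2 scale (adjusted p = 0.0145, SE 0.29). Ctsd, the main aspartic protease of lysosomes, was at 2394, 1612 and 1742 CPM at 11 d and 4065, 4585 and 3723 CPM at 14 d and rose by 1.11 on the log2 scale (adjusted p = 0.0168, SE 0.20). Ctsa, Hexa and Psap, a protective carboxypeptidase, an enzyme of ganglioside breakdown and the sphingolipid activator precursor, rose by 0.68, 0.96 and 0.94, with adjusted p-values between 0.0168 and 0.042. Man2b1, a mannosidase outside the list, was at 126, 97.2 and 94.9 CPM at 11 d and 359, 334 and 206 CPM at 14 d and rose by 1.502 on the log2 scale (adjusted p = 0.00827, SE 0.23). For Ctss and Ctsd 11 d replicate 1 was the highest of its group. All 6 listed rises were still called without it, and none was called without 11 d replicate 2, 11 d replicate 3 or 14 d replicate 1.

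The promoters of Ctsa and Ctsd are shown because they hold the CLEAR element TCACGTGA, the letters bound by the lysosomal regulator TFEB. The motif reads the same on both strands. Of the 6 lysosomal genes that rose 5 had a promoter entry, and these 2 held the motif, as did 258 of 32851 promoters (0.785%). The windows are chr2:164833523-164833772 on the plus strand for Ctsa and chr7:142387828-142388077 on the minus strand for Ctsd in GRCm38.p6, and capitals mark the match. Ctsa has 2 promoter entries, of which the one with the match is printed. The LXR repeat, AGGTCA repeated after any 4 bases, was found in none of the 4 rising export genes with an entry and in 5 (0.0152%) of all promoters. The sterol regulatory element bound by SREBP, read as ATCA followed directly by CCCCAC on one strand or the other, was in none of the 3 falling sterol genes with an entry and in 24 (0.0731%) of all promoters.
Ctsa: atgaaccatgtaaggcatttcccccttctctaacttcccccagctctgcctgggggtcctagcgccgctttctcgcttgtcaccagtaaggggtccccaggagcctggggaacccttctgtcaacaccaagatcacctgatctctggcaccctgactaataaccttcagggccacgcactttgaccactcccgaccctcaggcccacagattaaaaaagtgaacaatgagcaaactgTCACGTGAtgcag
Ctsd: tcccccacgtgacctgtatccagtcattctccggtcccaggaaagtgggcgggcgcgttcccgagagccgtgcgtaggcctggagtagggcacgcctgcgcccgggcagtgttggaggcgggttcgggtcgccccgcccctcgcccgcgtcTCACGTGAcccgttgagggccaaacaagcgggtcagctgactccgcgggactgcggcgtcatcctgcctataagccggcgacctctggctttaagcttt

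Markers of lipid-laden and tissue macrophages rose in part. Of 17 markers of lipid-associated macrophages 4 (against 0.813% of all genes) rose and none fell, with a median log2 change of 0.46. Lipa and Ctsd are described above. Trem2, a lipid-sensing receptor of these cells, was at 60.3, 24.7 and 29.3 CPM at 11 d and 97.5, 92.5 and 114 CPM at 14 d and rose by 1.41 on the log2 scale (adjusted p = 0.0232, SE 0.28). Atp6v0d2, a subunit of the proton pump of macrophages, was at 299, 241 and 201 CPM at 11 d and 501, 491 and 504 CPM at 14 d and rose by 1.02 on the log2 scale (adjusted p = 0.0117, SE 0.17). Its 14 d libraries lay within a narrow range above all of 11 d. Gpnmb, at 799.8, 331 and 356 CPM at 11 d and 964, 1279 and 996 CPM at 14 d, had a log2 change of 1.12 (adjusted p = 0.0612, SE 0.28) and was not called, although every 14 d library was above every 11 d library. Spp1 and Fabp5, also on the list, had log2 changes of 0.50 (adjusted p = 0.487, SE 0.33) and 0.16 (adjusted p = 0.827, SE 0.28) with overlapping libraries.

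Of 15 markers of interstitial macrophages 5 (against 0.813% of all genes) rose, and 1 (against 0.983%), Lyve1, fell. Lyve1 is also on the list of 8 lymphatic endothelial markers, where it was the only call and the median log2 change was -0.31. C1qa, C1qb and C1qc, the chains of the complement starter C1q, rose by 0.96 (adjusted p = 0.0308, SE 0.20), 1.10 (adjusted p = 0.0286, SE 0.23) and 1.05 (adjusted p = 0.0423, SE 0.24). C1qa was at 165, 94.4 and 106 CPM at 11 d and 272, 184 and 252 CPM at 14 d, with 11 d replicate 1 the nearest to the 14 d group. Mertk, a receptor for dying cells, was at 75.3, 54.3 and 58.4 CPM at 11 d and 114, 126 and 102 CPM at 14 d and rose by 0.86 on the log2 scale (adjusted p = 0.0379, SE 0.19). Axl, of the same receptor family, rose by 1.08 on the log2 scale (adjusted p = 0.0145, SE 0.19), and the mannose receptor Mrc1 rose by 0.63 on the log2 scale (adjusted p = 0.0289, SE 0.13). The summed level of the interstitial macrophage markers, of which Apoe is one, was 2099 to 4373 CPM at 11 d and 11954 to 15452 CPM at 14 d. Most of that sum was Apoe, and over the other 14 members it was 842 to 1185 CPM at 11 d and 1245 to 1605 CPM at 14 d. No other complement gene among the 20 tested was called.

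**Figure D4:**
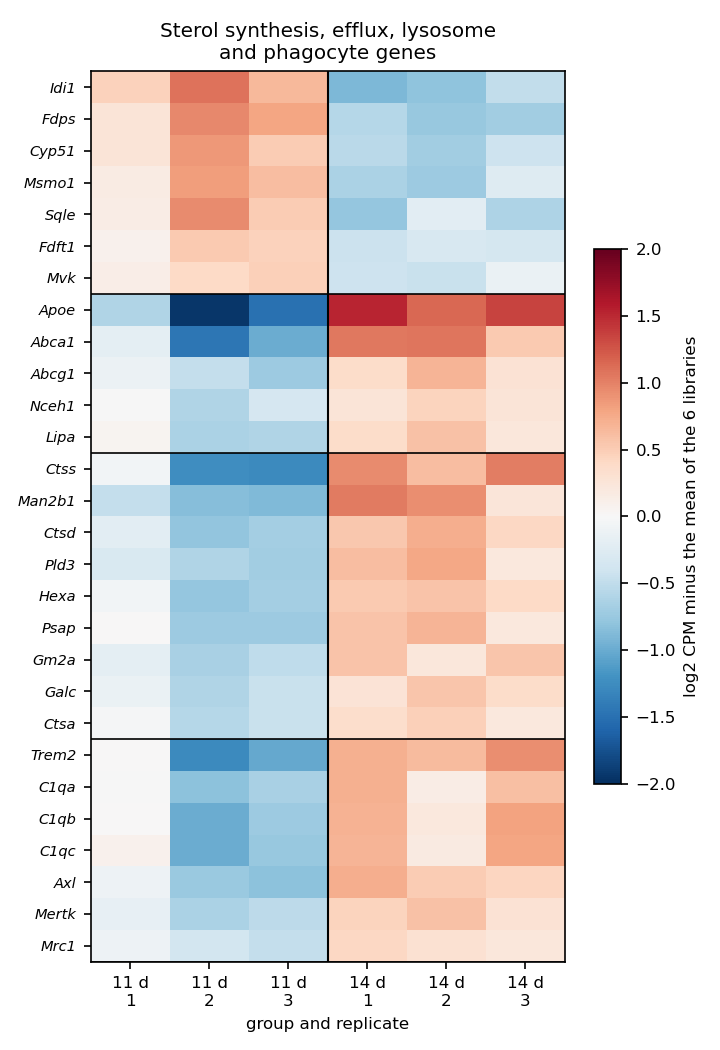
Rows are selected genes of sterol synthesis, export, lysosome and engulfment, and columns are the 3 libraries of 11 d and the 3 of 14 d, with colour giving log2 CPM minus the mean of the 6 libraries. The rows do not stand for whole lists. Ch25h of the export list and the scavenger receptor Marco, which fell, are not shown. Neither are Hmgcs1, Fasn and Acaca, which were not called, and Man2b1 is from outside the lists. The sterol rows are higher in the 11 d libraries and the others higher in the 14 d libraries, and 11 d replicate 1 is the highest of its group in every row of the lower 3 blocks.

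Markers of alveolar macrophages went both ways. Of 16 tested 2 (against 0.813% of all genes) rose, Atp6v0d2 and Mrc1, and 4 (against 0.983%) fell, Marco, Car4, Krt79 and Fabp1. Car4 is also a marker of alveolar capillaries and is described with them. Krt79 was at 5.58, 7.97 and 3.27 CPM at 11 d and 1.8, 1.92 and 0.459 CPM at 14 d and fell by 2.004 on the log2 scale (adjusted p = 0.0272, SE 0.41). Siglecf, Pparg and Chil3, which define these cells, had log2 changes of 0.20 (adjusted p = 0.548, SE 0.15), 0.30 (adjusted p = 0.354, SE 0.15) and 0.04 (adjusted p = 0.927, SE 0.16), and none was called.

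The ribonuclease genes Ear2, Ear3 and Ear12 were among the calls that held without any one library. Ear2, a gene of monocytes and eosinophils, was at 68.6, 65.9 and 60.6 CPM at 11 d and 231, 166 and 221 CPM at 14 d and rose by 1.66 on the log2 scale (adjusted p = 0.000274, SE 0.16). Its level at 14 d differed from unirradiated lung by 0.13 (adjusted p = 0.547, SE 0.16), which was not called, against -1.53 (adjusted p = 8.29e-06, SE 0.16) at 11 d. Ear3 and Ear12 had the same count in every library, and the family is made of near-identical copies, so reads cannot be assigned to one of them with certainty. Among 12 genes of eosinophils and the type 2 response none was called. Ear2 was the only call among 13 monocyte markers, whose median log2 change was -0.34. Of these 8 were below 0. The libraries did not overlap for 2 that were higher (against 9.96% of all genes) and 4 that were lower (against 11.7%) at 14 d.

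Other immune genes rose singly. Cd22, an inhibitory lectin known from B cells, was at 31.4, 21.1 and 17.3 CPM at 11 d and 76.3, 74.5 and 52.8 CPM at 14 d and rose by 1.54 on the log2 scale (adjusted p = 0.00541, SE 0.21). It was the only call among 15 B cell markers, whose median log2 change was -0.22. Tlr8, a sensor of RNA in endosomes, rose by 1.59 on the log2 scale (adjusted p = 0.0152, SE 0.29), and the inflammasome sensor Nlrp1b rose by 1.53 on the log2 scale (adjusted p = 0.0103, SE 0.25). Hpse, which cuts heparan sulphate, was at 26.5, 10.4 and 13.2 CPM at 11 d and 55.2, 57.2 and 57.4 CPM at 14 d and rose by 1.76 on the log2 scale (adjusted p = 0.00843, SE 0.27). Spink2 and Pianp, further genes named by size of change, rose by 2.28 (adjusted p = 0.0138, SE 0.39) and 2.23 (adjusted p = 0.0168, SE 0.41).

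All 10 genes of class II antigen presentation had log2 changes above 0 (against 8051 of 16484 genes tested), with a median of 0.57. Of these 1 (against 0.813% of all genes) was called higher. H2-DMa, which helps load peptides, was at 51.4, 35.5 and 45.6 CPM at 11 d and 104, 66.9 and 74.8 CPM at 14 d and rose by 0.89 on the log2 scale (adjusted p = 0.0308, SE 0.19). Cd74, the invariant chain, was at 2246, 1752 and 1972 CPM at 11 d and 4109, 2832 and 2896 CPM at 14 d, a log2 change of 0.72 (adjusted p = 0.0779, SE 0.19) that was not called although the groups did not overlap.

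Cytotoxic cells showed falls in 3 of 16 markers (against 0.983% of all genes). Ncr1, a receptor of natural killer cells, was at 7.02, 7.87 and 6.27 CPM at 11 d and 3.51, 2.23 and 4.72 CPM at 14 d and fell by 1.02 on the log2 scale (adjusted p = 0.0451, SE 0.24). Gzmb, a granzyme, fell by 1.001 on the log2 scale (adjusted p = 0.0457, SE 0.24), and Klra8, a receptor of natural killer cells, fell by 1.10 on the log2 scale (adjusted p = 0.0334, SE 0.24). Eomes and Prf1 had log2 changes of -0.28 (adjusted p = 0.566, SE 0.22) and -0.62 (adjusted p = 0.276, SE 0.27) and were not called. The T cell list of 20 genes held no call and had a median of 0.04.

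Endothelial markers fell in part. Of 28 markers of blood vessel endothelium 11 (against 0.983% of all genes) fell and none rose. All 28 had log2 changes below 0 (against 8433 of 16484 genes tested), with a median of -0.74. Their summed level was 3553 to 4963 CPM at 11 d and 2353 to 2815 CPM at 14 d, below the 10419 to 10655 CPM of unirradiated lung. Car4, bound to the surface of alveolar capillary cells and at chromosome 11, 84957786 to 84966044 (mm10), was at 208, 330.0 and 241 CPM at 11 d and 52.2, 79.8 and 70.7 CPM at 14 d and fell by 1.94 on the log2 scale (adjusted p = 0.000274, SE 0.18). Every 14 d library was more than 2-fold below the lowest at 11 d. Its log2 difference from unirradiated lung was -0.60 (adjusted p = 0.0155, SE 0.18) at 11 d and -2.54 (adjusted p = 3.33e-07, SE 0.19) at 14 d.

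Tek and Tie1, the angiopoietin receptor and its partner, fell by 1.09 (adjusted p = 0.00754, SE 0.16) and 0.81 (adjusted p = 0.0295, SE 0.17). Tek was at 87.4, 138 and 114 CPM at 11 d and 45.8, 59.6 and 54 CPM at 14 d, with no overlap, and its log2 difference from unirradiated lung was -3.29 (adjusted p = 1.1e-07, SE 0.17) at 14 d. Tmem100, a target of BMP signalling in endothelium, was at 48.6, 101 and 78.8 CPM at 11 d and 21, 29.4 and 33.4 CPM at 14 d and fell by 1.45 on the log2 scale (adjusted p = 0.0145, SE 0.25). Hpgd, which breaks down prostaglandins, was at 169, 303 and 283 CPM at 11 d and 72, 103 and 123 CPM at 14 d and fell by 1.34 on the log2 scale (adjusted p = 0.0118, SE 0.22).

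Among genes of cell contact, Cldn5 of the tight junction and Pecam1 of the cell contact fell by 1.13 (adjusted p = 0.0203, SE 0.22) and 0.76 (adjusted p = 0.022, SE 0.15). Plvap of the vesicle diaphragm was at 106, 166 and 172 CPM at 11 d and 84.8, 88 and 64.5 CPM at 14 d and fell by 0.90 on the log2 scale (adjusted p = 0.0454, SE 0.21), a call lost in 5 of the 6 fits. Calcrl, Egfl7 and Erg, a peptide receptor, a secreted vessel protein and a transcription factor, fell by 0.81, 0.79 and 0.88 with adjusted p-values between 0.0145 and 0.0335. Of the 11 endothelial falls 11 were called without 11 d replicate 1, 9 without 14 d replicate 3 and 1 without 14 d replicate 1.

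Of 13 red cell genes tested 4 (against 0.983% of all genes) fell, with a median log2 change of -1.25 over the list. These were the globin genes Hba-a1, Hba-a2 and Hbb-bt and the transferrin receptor Tfrc. The summed level was 7104 to 13225 CPM at 11 d and 2623 to 5311 CPM at 14 d. The globin genes are close copies among which reads may be shared, and globin RNA comes from red cells in blood left in the tissue. Tfrc, which also takes up iron in other cells, was at 126, 125 and 122 CPM at 11 d and 73.1, 71.8 and 87.1 CPM at 14 d and fell by 0.68 on the log2 scale (adjusted p = 0.0103, SE 0.11). The part of blood content in the endothelial falls was not tested. Leaving out Rn45s and the globin genes before scaling gave 293 calls, all of them among the 296. The called globin genes were among those left out, so this count does not bear on blood content.

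Some markers of the alveolar epithelium were called. Of 15 type 1 cell markers 3 (against 0.983% of all genes) were called lower, Cav1, Hopx and Igfbp6. All 15 had log2 changes below 0 (against 8433 of 16484 genes tested), with a median of -0.38. The libraries did not overlap for 8 that were lower at 14 d (against 11.7% of all genes) and for none that was higher. Their summed level was 6305 to 8052 CPM at 11 d and 5123 to 5982 CPM at 14 d, without overlap. Cav1, the coat protein of caveolae and abundant in endothelium too, was at 459, 537 and 599 CPM at 11 d and 267, 319 and 356 CPM at 14 d and fell by 0.76 on the log2 scale (adjusted p = 0.0179, SE 0.14). Hopx fell by 0.63 on the log2 scale (adjusted p = 0.0457, SE 0.15). Ager, the receptor RAGE that defines type 1 cells, was at 1851, 2699 and 2487 CPM at 11 d and 1958, 1914 and 1525 CPM at 14 d and had a log2 change of -0.38 (adjusted p = 0.298, SE 0.18). Of 19 type 2 cell markers Il33 alone fell, and the surfactant gene Sftpc was at 10304, 14211 and 15929 CPM at 11 d and 10782, 10857 and 12506 CPM at 14 d with a log2 change of -0.24 (adjusted p = 0.582, SE 0.20). Of 16 markers of the transitional state between them, Cldn4, a tight junction protein, rose by 1.23 (adjusted p = 0.0407, SE 0.28) and Hbegf, a growth factor, fell by 0.70 (adjusted p = 0.0119, SE 0.12). Cldn4 was called without 14 d replicate 3 but in none of the other 5 fits.

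Genes of airway cells held no call. The median over 16 club cell markers was -0.72 and over 16 ciliated cell markers 0.07. Scgb1a1, the secretoglobin of club cells, was at 5074, 9097 and 8544 CPM at 11 d and 4107, 6492 and 4354 CPM at 14 d, a log2 change of -0.60 (adjusted p = 0.285, SE 0.27) with overlapping groups. Reg3g, an antimicrobial lectin of airway epithelium, was at 20.8, 15.5 and 17.1 CPM at 11 d and 1.17, 3.39 and 2.13 CPM at 14 d. Its groups lay far apart and its log2 change was -2.98 (adjusted p = 0.357, SE 1.52), which was not called.

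Of 36 collagen and matrix genes 2 (against 0.813% of all genes) rose, with a median of 0.19. Fn1, fibronectin, was at 903, 658 and 690.5 CPM at 11 d and 1804, 2282 and 1223 CPM at 14 d and rose by 1.24 on the log2 scale (adjusted p = 0.0301, SE 0.26). Fbln2, a fibulin of elastic fibres and basement membrane, was at 12.4, 8.86 and 7.47 CPM at 11 d and 24.7, 22.3 and 14.9 CPM at 14 d and rose by 1.10 on the log2 scale (adjusted p = 0.0379, SE 0.25). Both were called without 11 d replicate 1 and without 14 d replicate 3 and in none of the other 4 fits. Col1a1 and Col3a1, the main fibrillar collagens, had log2 changes of 0.40 (adjusted p = 0.431, SE 0.24) and 0.05 (adjusted p = 0.95, SE 0.26) and were not called.

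Of 14 markers of myofibroblasts and repair fibroblasts Grem1 and Ltbp2 rose. Grem1, an antagonist of BMP ligands, was at 0.845, 0.0937 and 0.104 CPM at 11 d and 4.63, 2.19 and 3.46 CPM at 14 d and rose by 3.22 on the log2 scale (adjusted p = 0.0145, SE 0.57), the largest rise among called genes, from a low level. At 11 d replicate 1 was well above the other libraries of its group, and at 14 d all libraries were above it. Ltbp2, a latent TGF-beta binding protein, rose by 0.89 on the log2 scale (adjusted p = 0.0264, SE 0.18). The TGF-beta receptor Tgfbr1 was at 137, 86.9 and 93.6 CPM at 11 d and 217, 156 and 199.9 CPM at 14 d and rose by 0.85 on the log2 scale (adjusted p = 0.0269, SE 0.17). The BMP receptor Acvrl1 and the ligand Bmp6, both of endothelium among other cells, fell by 0.78 (adjusted p = 0.0286, SE 0.16) and 1.04 (adjusted p = 0.0145, SE 0.18). Acta2 and Cthrc1, of contractile and activated fibroblasts, had log2 changes of -0.36 (adjusted p = 0.394, SE 0.19) and -0.10 (adjusted p = 0.907, SE 0.33).

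**Figure D5:**
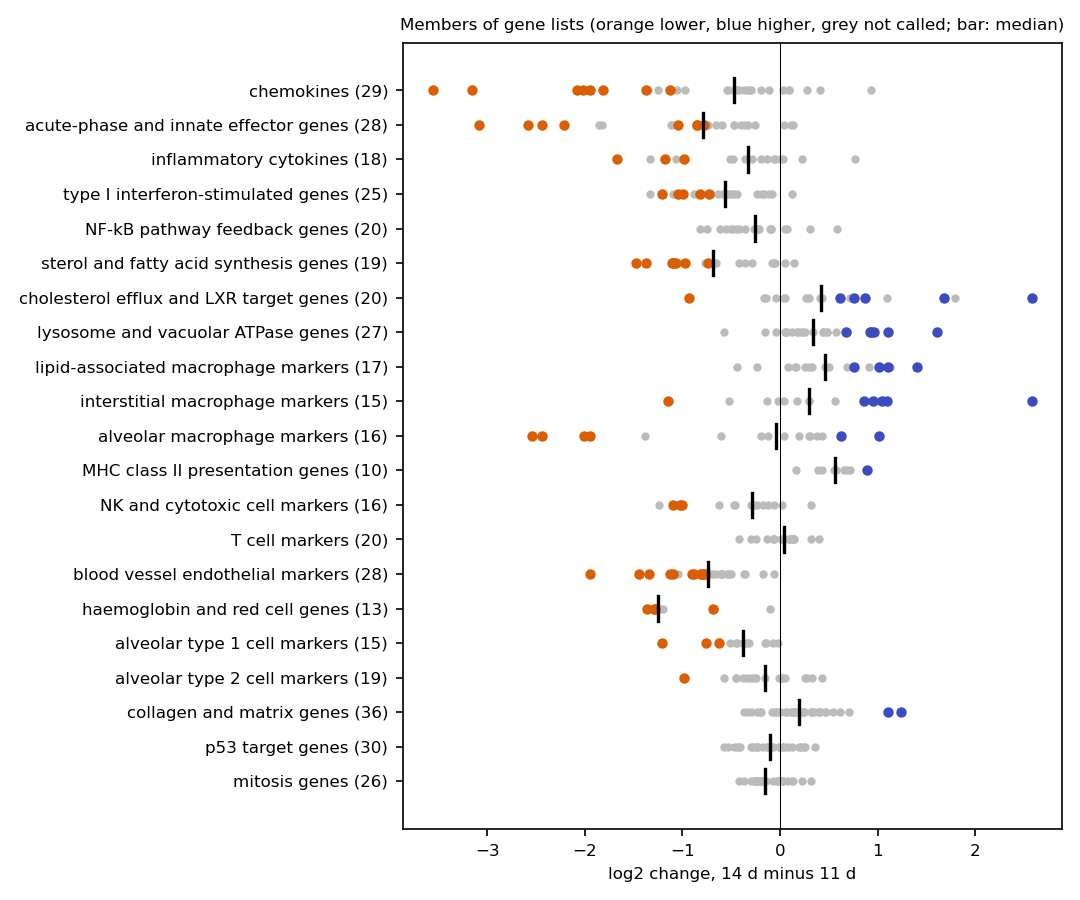
Each point is a tested member of a gene list at its log2 change, 14 d minus 11 d, orange where called lower, blue where called higher and grey otherwise, with a bar at the list's median and the number tested in brackets. Chemokine, interferon, sterol synthesis, endothelial and alveolar type 1 lists lie mostly below 0, and lysosomal, export and class II lists mostly above it.

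No member was called among 30 p53 target genes (median -0.10), 28 replication genes (-0.14) or 26 mitosis genes (-0.15). Cdkn1a, the p53 target that halts the cell cycle, was at 171, 193 and 259.9 CPM at 11 d and 156, 169.6 and 143 CPM at 14 d, a log2 change of -0.41 (adjusted p = 0.232, SE 0.17) with all 14 d libraries just below those of 11 d. The 16 checkpoint and regulatory T cell genes and the 15 dendritic cell markers were without a call as well. Of the checkpoint and regulatory T cell genes 14 (against 8051 of 16484 genes tested) had log2 changes above 0, with a median of 0.40. Their libraries did not overlap for 5 that were higher at 14 d (against 9.96% of all genes) and for none that was lower. Among the dendritic cell markers, with a median of 0.13, this held for 4 that were higher and 1 that was lower (against 11.7%). Jchain, the joining chain of secreted antibody and a member of the uncalled plasma cell list, was at 69.9, 15.1 and 26.5 CPM at 11 d and 82.3, 64.4 and 285 CPM at 14 d. Its log2 change of 1.95 (adjusted p = 0.111, SE 0.59) was not called, the groups overlapped, and 14 d replicate 3 stood far above the rest. Naip5 of the inflammasome list rose by 1.14 on the log2 scale (adjusted p = 0.0103, SE 0.19), and Gpm6a of the mesothelial list fell by 0.78 on the log2 scale (adjusted p = 0.0406, SE 0.18), each the only call of its list. All 8 mesothelial markers had log2 changes below 0 (against 8433 of 16484 genes tested), with a median of -0.64. Their summed level was 263 to 374 CPM at 11 d and 184 to 237 CPM at 14 d. Among markers of neighbouring tissues, skeletal muscle genes summed to 13.8 to 16.4 CPM at 11 d and 12.2 to 17.1 CPM at 14 d, and adipocyte genes to 35.7 to 51.4 CPM at 11 d and 36.9 to 61.3 CPM at 14 d. Cardiac muscle genes, of which none of 11 was called, summed to 64.7 to 118 CPM at 11 d and 48.9 to 68.4 CPM at 14 d, with a median log2 change of -0.73. The part of heart or mesothelial tissue in the endothelial falls was not tested.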

How the data were processed

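The authors deposited a table of counts per gene symbol for each of the 12 libraries, whole numbers that are not normalized. Libraries were built from 1.3 µg of Trizol-extracted total RNA with the NEBNext Ultra II Directional kit, per the labels' protocols. Per the submitters' processing notes the reads were aligned with TopHat to mm10; the sources used here do not give its version, the counter, the annotation or the strand setting. Overlapping and antisense genes are therefore uncertain.

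Of 23282 lines, 79 shared 35 symbols and were summed, which left 23238 symbols. The default expression filter of edgeR 4.0.16 (R 4.3.3) removed 6754 and kept 16484. The 4 groups of 3 were fitted together with TMM scaling, and contrasts were tested with the quasi-likelihood F test, two-sided, with Benjamini-Hochberg adjustment over all genes tested. A gene was called at an adjusted p below 0.05. The SE was taken as the size of the log2 change over the root of its F value, and CPM use scaled library sizes. Per library values are given in the order of replicates 1 to 3. Coordinates are from GENCODE M21 or, for renamed genes, RefSeq (GRCm38.p6). Libraries of a group differed by more than sampling noise.

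The genes compared and the 58 gene lists were chosen with earlier results of these data known. Named were the 14 highest and 14 lowest changes among the calls that reached 5 CPM on average in the higher group without overlap of libraries, up to 4 members of each list with the lowest p, the 8 clearest changes of step, and Saa3, Ccl2, Irg1, Lcn2, Apoe, Gpnmb, Jchain, Tek, Cdkn1a, Sftpc and Ager. Not all are printed, some list members are counted but not reported by name here, and the rule left out immunoglobulin, T cell receptor and haemoglobin genes and unnamed loci. Further list members and all genes of the closing section were chosen after their values were seen. Lists are described by counts of calls and medians, with no set test. Alternatives were other scalings and filters, a replicate block, DESeq2 1.42.0, voom of limma 3.58.1, a fit of only the groups compared, removal of Rn45s and the haemoglobin genes, and each library left out. The scripts were tested on simulated data of 16484 genes, where 4 of 123 calls were false and none had the wrong sign. Those counts were drawn gene by gene, so this share of false calls need not hold for the real libraries.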

Additional observations from a re-analysis of the deposited data

Results flagged for a closer look

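The genes below drew attention because their step from 11 d to 14 d differed from their step from 8 d to 11 d in a direct test of that difference (edgeR, adjusted p below 0.05, n = 3 per group). The value given is the later log2 step minus the earlier one. It was -5.03 for Irg1, -4.61 for Clec4e, -4.26 for Saa3, -3.44 for Marco, -3.30 for Hcar2 and -1.77 for Lcn2. Among chemokines it was -3.01 for Ccl2, -2.70 for Ccl3, -3.19 for Ccl7 and -3.71 for Cxcl13, the B cell attractant, which was not called at 14 d against 11 d. Among cytokines it was -2.96 for Tnf, -2.41 for Il1rn and -1.53 for Il33. The fibrinogen chains had -3.47 (Fga) and -3.30 (Fgg), Hmox1, which was not called at 14 d against 11 d either, had -1.73 and Car4 had -1.95. In the other direction Ear2 had 1.75, Ear3 1.73 and Ear12 1.73, and these near-identical copies may share reads. Both steps use the 11 d libraries. With 1 of the 6 libraries compared left out, between 2 and 12 genes passed the same test.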

How the results depend on the processing

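The 296 calls (134 higher, 162 lower) were within 1.5 times that number with median-of-ratios scaling (299), with no scaling beyond library size (293), unfiltered (382), with 10 counts demanded in all 3 libraries of a group (304), with limma-voom (316), with the 6 compared libraries alone (221) and without Rn45s and the haemoglobin genes (293). The genes called were less stable than their number: of the 221 calls with the 6 compared libraries alone, 179 were among the 296 and 42 were not. DESeq2 called 827 genes, 386 higher and 441 lower, the 296 among them, and 95 for the change of step against 20. With each library left out in turn the calls ran from 13 to 681, the rises from 7 to 360, the falls from 6 to 321 and the changes of step from 2 to 28. Leaving out libraries of the other groups, a step chosen after seeing the data, also changed the number of calls. There were 463 without 8 d replicate 2, 196 without 8 d replicate 3 and 188 without unirradiated replicate 2. All 4 groups were in the same fit, and the part of the shared spread in these changes was not tested. None of the 296 genes changed sign under any of these settings. Uncalled genes near 0 did with single libraries left out: Acly ran from -0.14 to 0.0172, Chil3 from -0.0498 to 0.14, Col3a1 from -0.14 to 0.20, Cthrc1 from -0.46 to 0.0692, Fabp5 from -0.0451 to 0.58, Fasn from -0.29 to 0.31 (-0.004535 with limma-voom) and Rn4.5s from -2.58 to 0.12. The replicate number as a block gave 425 calls, 212 higher and 213 lower, and 8 changes of step. Deviations of libraries with the same number correlated at 0.04, 0.18 and 0.03, and 11 d replicate 1 correlated best with 14 d replicate 3 (0.15), so the numbers are not taken as a pairing. The depth and 3 libraries per group limit what can be called: on simulated counts of this comparison a true change of 1.5-fold was found in 13.8% of cases, one of 2-fold in 72.3% and one of 4-fold in 95.5%. A gene without a call is therefore not shown to be unchanged. The simulated counts were drawn gene by gene, with no deviation shared across the genes of a library. The real libraries held such deviations, as for 11 d replicate 1, so the simulated rates need not hold for them.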

Other observations

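Further genes called lower, outside the lists, were chosen after their values were seen. S1pr1, the sphingosine phosphate receptor that seals capillaries, was at 117, 167 and 166 CPM at 11 d and 74.8, 82.1 and 80.9 CPM at 14 d and fell by 0.92 on the log2 scale (adjusted p = 0.0232, SE 0.18). Ramp2, which pairs with Calcrl to bind adrenomedullin, fell by 1.08 on the log2 scale (adjusted p = 0.0274, SE 0.22), and Foxf1, a transcription factor of lung capillaries, fell by 1.05 on the log2 scale (adjusted p = 0.0296, SE 0.22). Ptrf and Sdpr, which build caveolae with Cav1, fell by 0.67 (adjusted p = 0.0419, SE 0.15) and 0.82 (adjusted p = 0.0209, SE 0.16). Each of these genes had all 14 d libraries below all 11 d libraries.

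The genes that follow were also chosen after their values were seen. Hpgds and Tbxas1, which make prostaglandin D and thromboxane in myeloid cells, rose by 1.17 (adjusted p = 0.0457, SE 0.28) and 1.09 (adjusted p = 0.0145, SE 0.19). Trf, transferrin, rose by 0.71 on the log2 scale (adjusted p = 0.0272, SE 0.14). Cd5l, a secreted macrophage protein, was at 0.549, 0.656 and 0.674 CPM at 11 d and 1.48, 2.53 and 2.71 CPM at 14 d and rose by 1.84 on the log2 scale (adjusted p = 0.0393, SE 0.41).

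Small non-coding RNAs set 11 d replicate 2 apart. Rpph1, the RNA of ribonuclease P, was at 0.592, 14.4 and 0.83 CPM at 11 d and 0.36, 0.566 and 0.417 CPM at 14 d, and Rn4.5s was at 41.1, 491 and 41 CPM at 11 d and 57.3, 43.4 and 33 CPM at 14 d. In both, that library was more than 10-fold above the others of its group, and neither gene was called. The same library held the highest share of Rn45s, 6.27% of counts. The part of this difference in the loss of calls without that library was not tested.

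Of 13 mast cell and basophil markers none was called. Of these 8 had log2 changes above 0 and 5 below it, with a median of 0.67. The libraries did not overlap for 5 that were higher (against 9.96% of all genes) and 3 that were lower (against 11.7%) at 14 d. Their summed level was 169 to 180.5 CPM at 11 d and 159 to 163 CPM at 14 d. Mcpt4, a chymase, was at 0.803, 0.75 and 0.778 CPM at 11 d and 2.88, 2.87 and 3.21 CPM at 14 d, a log2 change of 1.93 (adjusted p = 0.0936, SE 0.55) with every 14 d library above every 11 d library.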
